A study of Homo sapiens with 6 samples.

Results

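DNA replication and E2F target genes were examined in HCT116, a cell line from a human colorectal cancer. The set held 48 genes named by symbol for their function, and it was drawn up with earlier results of these data known. All 48 were found among the 19871 gene symbols of the tables, and all 48 were among the 11907 symbols with a mean of at least 50 counts over the 3 groups. The groups were NC, the negative control, GAS5, cells described by the study as overexpressing the long non-coding RNA GAS5, and siYAP, cells given small interfering RNA against YAP. The sample labels list all 3 groups under an siRNA tag, and a treatment note names a GAS5 plasmid or YAP siRNA. What NC received and which YAP siRNA was used are not stated. For GAS5 the tag and the note differ, so how it was delivered in the sequenced cells is not certain. All groups came from 1 cell line and each had 2 libraries, 6 in total. The tables give 1 value per group, the authors' mean of its 2 libraries, so the spread between libraries is unknown and no test between groups was possible. Whether the 2 libraries of a group came from separate cultures is not stated.

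Cells license their replication origins before S phase by loading the MCM2 to MCM7 helicase, and CDC45 and the GINS complex then switch that helicase on. DNA polymerases, the PCNA clamp and its RFC loader copy the strands, while nucleotide enzymes and chromatin assembly factors keep pace. E2F transcription factors drive many of these genes once cyclin D and cyclin E kinases release them from the retinoblastoma protein, so the set as a whole is known to follow proliferation in tumour cells. In RNA from a whole culture, fewer cells in S phase and less RNA per cell cannot be told apart.

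The promoter sequences of 6 members are shown because they carry, or in the last case lack, the E2F words counted further on. They were picked by hand as examples. They do not stand for all members with and without a word, whose changes are given further on. They come from RefSeq on GRCh38.p14, run from 250 bases before to 50 bases after the annotated start, and are written 5′ to 3′ on the strand of the gene. Capitals mark E2F words. MCM6, a helicase subunit, lies on the minus strand and its window is chr2:135876394-135876693. GINS2, a GINS subunit on the minus strand, has the window chr16:85688905-85689204, and PCNA, the sliding clamp on the minus strand, has chr20:5126573-5126872. CDC6, a helicase loader on the plus strand, has chr17:40287629-40287928. E2F1, itself an E2F factor on the minus strand, has chr20:33686336-33686635. CDK6, a cyclin D kinase on the minus strand with no such word, has chr7:92836524-92836823.
MCM6: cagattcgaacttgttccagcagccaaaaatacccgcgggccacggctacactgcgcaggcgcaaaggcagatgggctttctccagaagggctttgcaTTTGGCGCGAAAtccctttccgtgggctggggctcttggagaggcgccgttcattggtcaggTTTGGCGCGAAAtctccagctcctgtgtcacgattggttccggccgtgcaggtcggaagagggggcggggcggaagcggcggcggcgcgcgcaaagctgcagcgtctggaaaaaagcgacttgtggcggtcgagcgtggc
GINS2: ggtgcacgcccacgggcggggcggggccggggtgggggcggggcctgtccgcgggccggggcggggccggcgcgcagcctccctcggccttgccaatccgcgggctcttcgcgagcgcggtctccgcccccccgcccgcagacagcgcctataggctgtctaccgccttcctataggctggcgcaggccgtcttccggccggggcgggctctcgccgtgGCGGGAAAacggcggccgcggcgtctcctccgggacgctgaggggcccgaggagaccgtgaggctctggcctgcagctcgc
PCNA: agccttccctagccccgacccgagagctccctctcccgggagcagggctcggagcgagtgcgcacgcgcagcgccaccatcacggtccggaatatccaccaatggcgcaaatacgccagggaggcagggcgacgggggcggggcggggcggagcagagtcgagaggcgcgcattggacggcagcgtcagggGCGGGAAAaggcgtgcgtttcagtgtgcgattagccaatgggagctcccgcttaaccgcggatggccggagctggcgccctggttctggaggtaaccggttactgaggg
CDC6: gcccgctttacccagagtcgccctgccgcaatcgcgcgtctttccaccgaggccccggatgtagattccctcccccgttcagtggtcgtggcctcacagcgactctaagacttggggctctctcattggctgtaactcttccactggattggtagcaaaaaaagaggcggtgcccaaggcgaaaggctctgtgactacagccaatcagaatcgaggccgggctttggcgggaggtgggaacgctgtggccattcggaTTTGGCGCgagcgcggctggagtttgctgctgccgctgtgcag
E2F1: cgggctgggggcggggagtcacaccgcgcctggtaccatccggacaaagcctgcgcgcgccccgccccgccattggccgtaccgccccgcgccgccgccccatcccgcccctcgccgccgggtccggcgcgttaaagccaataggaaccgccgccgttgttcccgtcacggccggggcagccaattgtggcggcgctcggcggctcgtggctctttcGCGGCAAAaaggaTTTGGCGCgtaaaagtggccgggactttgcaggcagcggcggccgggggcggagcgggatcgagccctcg
CDK6: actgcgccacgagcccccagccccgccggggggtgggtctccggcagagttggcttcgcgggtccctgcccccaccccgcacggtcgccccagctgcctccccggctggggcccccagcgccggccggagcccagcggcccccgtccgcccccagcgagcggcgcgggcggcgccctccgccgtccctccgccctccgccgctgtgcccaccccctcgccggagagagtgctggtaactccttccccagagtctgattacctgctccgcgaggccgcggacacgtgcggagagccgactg

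Counts were summed over the transcripts of each symbol and scaled between pairs of group means by TMM, a method that assumes most genes are unchanged. A log2 fold change is the log2 ratio of scaled counts after adding 2 counts. A gene was called higher when it was at least 25% above and lower when it was at least 20% below the other group, which is the same fold in either direction (0.32 log2 units). This threshold marks size and not significance, and higher and lower are used in that sense. The bracketed intervals are 95% Wilson intervals and cover counting error only. The depth was 27206123 mean counts for NC, 26298036 for siYAP and 25521577 for GAS5, which gave a median half-width of 0.075 log2 units for the members in siYAP against NC and 0.066 in GAS5 against NC. FPKM, a level corrected for transcript length, was used wherever levels of different genes were set side by side. YAP1 itself had mean counts of 3480 in NC, 2679 in GAS5 and 1444 in siYAP, a difference of -1.18 [-1.24, -1.12] in siYAP against NC and -0.26 [-0.31, -0.21] in GAS5 against NC. CTGF and CYR61, well-known YAP target genes, were not lower in siYAP. CTGF had mean counts of 79.5, 122 and 84 in NC, GAS5 and siYAP, and CYR61 had 539.5, 1058 and 621, with log2 fold changes of 0.17 and 0.29 in siYAP and 0.72 and 1.09 in GAS5. The 8 epithelial markers summed to 3426 FPKM in NC, 3860 in GAS5 and 4545 in siYAP, with CEACAM6 at 0 counts in NC and siYAP. KRT8, KRT18 and KRT19 carried most of that sum, with log2 fold changes of 0.34, 0.15 and 0.18 in GAS5. The other measured markers in GAS5 were at -0.42 for CDH1, past the threshold, -0.22 for CLDN4, -0.07 for EPCAM and -0.06 for ELF3. In siYAP, KRT8, KRT18 and KRT19 were at 0.46, 0.46 and 0.50 and CLDN4 at 0.77, all past the threshold. CDH1 was at 0.21, ELF3 at 0.08 and EPCAM at -0.07 in siYAP. The 9 markers of leukocytes, fibroblasts, endothelium and red cells summed to 2.50, 4.37 and 3.26 FPKM, with PTPRC at 0 counts in all 3 groups. COL1A1 carried most of it, with 378.5, 556 and 540 counts in NC, GAS5 and siYAP (0.67 in GAS5 and 0.60 in siYAP), and CD14 had 4.5, 37.5 and 3 counts. The part of these markers in the results was not tested.

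In siYAP, most replication genes were lower than in NC. Of the 48 members, 37 were lower, 2 were higher and 9 lay between, while 15.2% of all 11907 genes were lower and 14.1% were higher. The median log2 fold change was -0.53 over the members and 0.00 over all genes. At least 1.5-fold lower were 20 members, against 4.19% of all genes. Lower by at least 2-fold were 3 of the 48 members, against 61 of all 11907 genes. Outside the cyclins and kinases, 35 of 41 members were lower and 0 were higher, with values from -1.16 for GINS2 to -0.15 for CDT1. In GAS5, 18 members were higher than in NC, 0 were lower and 30 lay between, against 10.7% of all genes higher and 9.52% lower. The median was 0.25, with a range from -0.21 for RFC4 to 0.67 for CCNE2. Above 0 lay 43 of the 48 members, against 5977 of all 11907 genes. In GAS5, 1 member of 48, CCNE2, was higher by at least 1.5-fold, a share close to the 2.55% of all genes. Both comparisons rest on the same NC means, and any error in those shifts a gene alike in each. As a share of all counts, the 48 genes together took 0.592% in NC [0.590, 0.594], 0.685% in GAS5 [0.682, 0.687] and 0.455% in siYAP [0.454, 0.457].

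**Figure D1:**
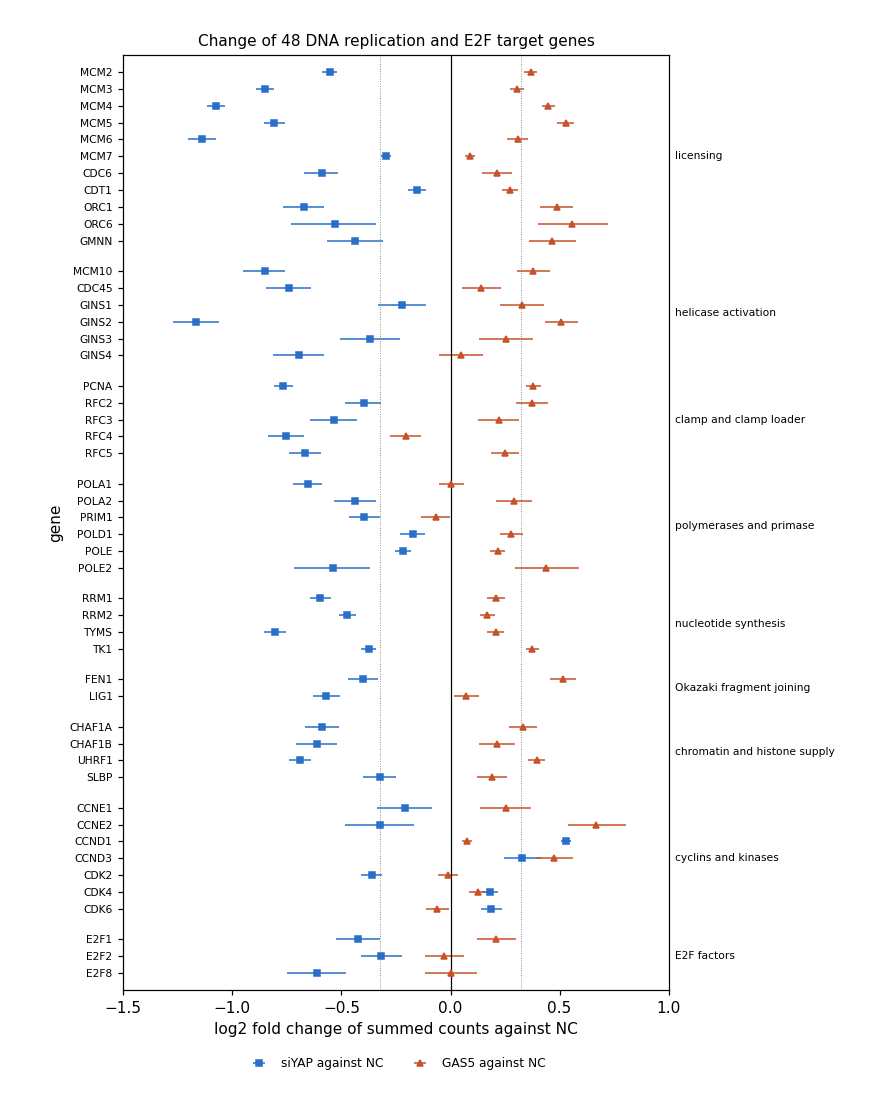
Log2 fold change of the 48 genes against NC, grouped by role, with siYAP as squares and GAS5 as triangles. Bars are 95% Wilson intervals of counting error, and dotted lines mark the threshold of 0.32 in either direction. Below 0 lie 44 of 48 squares, and above it lie 43 of 48 triangles. Of all 11907 genes, 5959 lie below 0 in siYAP and 5977 above it in GAS5.

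**Figure D2:**
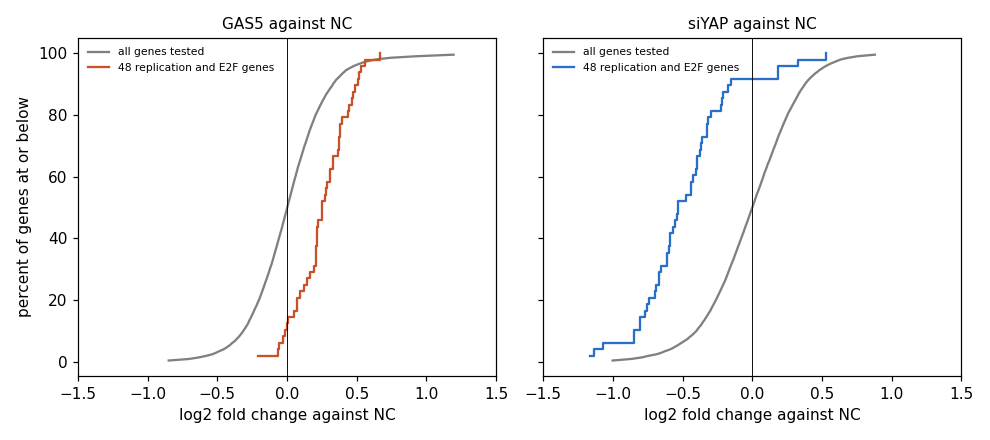
Cumulative percent of genes at or below a log2 fold change against NC, for all 11907 genes in grey and the 48 members in colour, with GAS5 on the left and siYAP on the right. The members' medians are 0.25 in GAS5 and -0.53 in siYAP, while all genes centre on 0.00.

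Among the 11 origin licensing genes, 9 were lower in siYAP and 6 were higher in GAS5. For this and each later role group, the background was 15.2% of all genes lower in siYAP and 10.7% higher in GAS5. MCM6, a subunit of the helicase ring, had mean counts of 3351 in NC, 3816 in GAS5 and 1429 in siYAP, or 32.4, 39.3 and 14.3 FPKM. In siYAP it fell by 54.6% (log2 fold change -1.14 [-1.20, -1.08]), and in GAS5 its log2 fold change was 0.31 [0.26, 0.36], just short of the threshold. The counts of MCM4, another ring subunit, were 7662 in NC, 9614 in GAS5 and 3420 in siYAP (87.9, 118 and 43.1 FPKM). It was lower in siYAP by -1.07 [-1.11, -1.03] and higher in GAS5 by 0.45 [0.42, 0.48] on the log2 scale. The order siYAP, NC, GAS5 from low to high was thus the same for both subunits. MCM5 showed 4933, 6542 and 2645 counts in NC, GAS5 and siYAP (73.7, 104 and 40.7 FPKM), with log2 fold changes of -0.81 [-0.86, -0.76] in siYAP and 0.53 [0.49, 0.57] in GAS5. For MCM3 the counts were 7369, 8376 and 3840.5 (95.2, 111 and 49.97 FPKM), and the log2 fold changes were -0.85 [-0.89, -0.81] and 0.30 [0.27, 0.34]. MCM2 was lower in siYAP (-0.55) and higher in GAS5 (0.37).

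MCM7 stood apart from its partners in the ring. It was the most abundant of the 6 subunits, with 216 FPKM in NC, 225 in GAS5 and 171 in siYAP, and its log2 fold change was -0.30 [-0.32, -0.27] in siYAP and 0.09 [0.07, 0.11] in GAS5. The 6 subunits bind in equal numbers, and the FPKM of MCM7 was 6.67 times that of MCM6 in NC, 5.73 times in GAS5 and 11.9 times in siYAP. The exons of MCM7 overlap those of AP4M1 on the opposite strand, and whether the counting used strand is not stated.

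The genes that bring the ring to origins also differed among themselves. ORC1, the largest subunit of the origin recognition complex, had 1204.5, 1552.5 and 709 counts in NC, GAS5 and siYAP (13.8, 18.9 and 8.42 FPKM), with log2 fold changes of -0.67 [-0.77, -0.58] in siYAP and 0.49 [0.41, 0.56] in GAS5. ORC6, a smaller subunit of that complex, had 270, 366.5 and 175 counts (5.98, 8.62 and 4.0 FPKM). Its log2 fold changes were -0.53 [-0.73, -0.34] and 0.56 [0.40, 0.72], with wide intervals at these low counts. CDC6, which loads the ring with CDT1, was lower in siYAP at -0.59 and stood at 0.21 in GAS5. CDT1 itself did not pass the threshold in either, at -0.15 in siYAP and 0.27 in GAS5. Geminin, the protein that blocks CDT1 and is encoded by GMNN, had 608, 772.5 and 421.5 counts (19.0, 25.5 and 13.1 FPKM), with log2 fold changes of -0.44 [-0.56, -0.31] and 0.46 [0.36, 0.57]. The FPKM ratio of CDT1 to GMNN was accordingly 3.06 in NC, 2.69 in GAS5 and 3.87 in siYAP.

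Of the 6 genes that activate the helicase, 5 were lower in siYAP and 3 were higher in GAS5. GINS2 differed most of all 48 members in siYAP. Its mean counts were 1242.5 in NC, 1626 in GAS5 and 519.5 in siYAP, or 17.0, 23.4 and 7.35 FPKM. That is a fall by 55.4% in siYAP (-1.16 [-1.27, -1.06] on the log2 scale), and only 0.235% of all genes had a lower value. In GAS5, GINS2 was higher by 0.51 [0.43, 0.58]. Its exons overlap another gene on the opposite strand. GINS1 to GINS4 form a tetramer with 1 copy of each subunit, and the FPKM of the most abundant was 2.07 times that of the least abundant in NC, 2.39 times in GAS5 and 1.17 times in siYAP. In all 3 groups the most abundant was GINS2, and GINS1, at -0.22 in siYAP and 0.33 in GAS5, differed least from NC in siYAP. GINS3 had -0.37 and 0.25 and GINS4 had -0.70 and 0.05 in siYAP and GAS5.

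MCM10, which helps to activate the helicase, had 1263, 1511 and 657 counts in NC, GAS5 and siYAP (12.5, 16.7 and 6.61 FPKM), with log2 fold changes of -0.85 [-0.95, -0.76] and 0.38 [0.30, 0.45] in siYAP and GAS5. CDC45, which joins MCM and GINS in the active helicase, had 1035, 1050 and 581 counts (20.7, 21.5 and 11.2 FPKM). It was lower in siYAP by -0.74 [-0.85, -0.64] and stood at 0.14 [0.05, 0.23] in GAS5. CDC45 and GINS4 were among the members that were well below NC in siYAP and close to NC in GAS5.

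**Figure D3:**
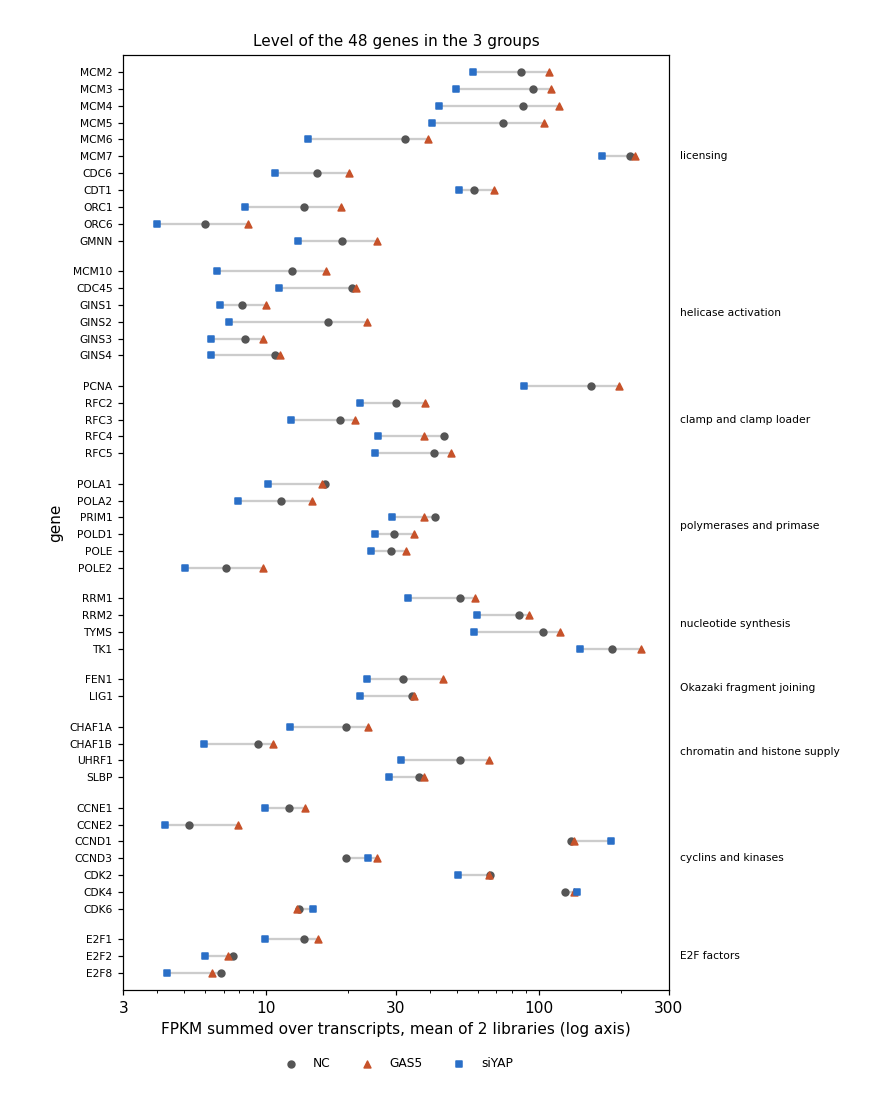
Summed FPKM of the 48 genes in NC (circles), GAS5 (triangles) and siYAP (squares) on a log axis, each point the authors' mean of 2 libraries without an error. siYAP is the lowest point for most genes outside the cyclins and kinases, and levels in NC run from 5.21 FPKM for CCNE2 to 216 for MCM7.

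All 5 genes of the clamp and its loader were lower in siYAP. PCNA, the ring that holds polymerases on DNA, had 5782, 6919 and 3191.5 counts in NC, GAS5 and siYAP, or 156, 198 and 88.5 FPKM. Its log2 fold change was -0.77 [-0.81, -0.72] in siYAP and 0.38 [0.34, 0.41] in GAS5. The loader subunits RFC2 to RFC5 ranged from -0.75 to -0.40 in siYAP. RFC4 was the exception in GAS5, with 1711, 1364 and 952.5 counts in NC, GAS5 and siYAP (45.2, 38.0 and 25.7 FPKM), below NC by -0.21 [-0.28, -0.13] in GAS5 and by -0.75 [-0.84, -0.67] in siYAP. Its exons overlap those of EIF4A2 on the opposite strand. RFC2, RFC3 and RFC5 had log2 fold changes of 0.37, 0.22 and 0.25 in GAS5.

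Polymerase genes were lower in siYAP in 4 of 6 cases, against 15.2% of all genes. In GAS5, 1 of 6 was higher, near the 10.7% of all genes. The catalytic subunit POLA1, which starts each new strand with primase, stood at -0.65 in siYAP and 0.00 in GAS5. The primase subunit PRIM1 stood at -0.39 and -0.07. POLD1 and POLE, the catalytic subunits of the lagging and leading strand polymerases, stayed short of the threshold in both, at -0.17 and -0.22 in siYAP and 0.28 and 0.22 in GAS5. POLE2, the accessory subunit of the leading strand polymerase, had 333, 416 and 214 counts in NC, GAS5 and siYAP (7.17, 9.79 and 5.04 FPKM), with log2 fold changes of -0.54 [-0.72, -0.37] and 0.44 [0.29, 0.59]. POLA2, the partner of POLA1, stood at -0.44 in siYAP and 0.29 in GAS5.

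Genes for nucleotide supply were lower in siYAP in 4 of 4 cases. TYMS, the thymidylate synthase that is the target of fluorouracil, had 4663.5, 4949.5 and 2510 counts in NC, GAS5 and siYAP (104, 120 and 58.2 FPKM). Its log2 fold change was -0.80 [-0.85, -0.75] in siYAP and 0.21 [0.17, 0.25] in GAS5. The ribonucleotide reductase subunits RRM1 and RRM2 stood at -0.60 and -0.47 in siYAP and at 0.21 and 0.17 in GAS5. TK1, which salvages thymidine, stood at -0.37 in siYAP and was the 1 gene of this group called higher in GAS5, at 0.37. A count of 1 in 4 is too small to set apart from the 10.7% of all genes.

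FEN1, the nuclease that trims Okazaki fragments, had 2010.5, 2640.5 and 1430 counts (31.9, 44.7 and 23.5 FPKM), lower in siYAP by -0.40 [-0.47, -0.33] and higher in GAS5 by 0.51 [0.45, 0.57]. Its exons overlap those of FADS2 on the same strand and TMEM258 on the other. LIG1, the ligase that seals the fragments, was lower in siYAP (-0.57) and near NC in GAS5 (0.07). All 4 genes of chromatin and histone supply were lower in siYAP. They were UHRF1, which carries DNA methylation through replication, CHAF1A and CHAF1B of chromatin assembly factor, and SLBP, which binds histone mRNA. UHRF1 had 4508, 5451 and 2623 counts in NC, GAS5 and siYAP (51.6, 65.5 and 31.2 FPKM), with log2 fold changes of -0.69 [-0.74, -0.64] and 0.39 [0.35, 0.43]. CHAF1A stood at -0.59 and 0.33, CHAF1B at -0.61 and 0.21, and SLBP at -0.32 and 0.19.

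Values of the cyclins and kinases upstream of E2F went both ways in siYAP. Of 7 genes, 2 were lower and 2 were higher in siYAP, with a median of 0.18. CCND1, the cyclin D1 that starts the release of E2F, had 15675, 15176 and 21241 counts in NC, GAS5 and siYAP, or 131, 135 and 184 FPKM. It was higher in siYAP by 44.3% (0.53 [0.51, 0.55] on the log2 scale) and close to NC in GAS5 (0.07 [0.05, 0.10]). CCND3, the cyclin D3, had 999, 1279 and 1178.5 counts in NC, GAS5 and siYAP (19.6, 25.5 and 23.7 FPKM), higher in both by 0.48 [0.39, 0.56] in GAS5 and 0.33 [0.24, 0.41] in siYAP. Their partners CDK4 and CDK6 did not pass the threshold in either treatment. CDK4 had 5348, 5363 and 5695 counts (125, 135 and 138 FPKM), with 0.18 [0.14, 0.22] in siYAP and 0.12 [0.09, 0.16] in GAS5. CDK6 had 3167, 2795 and 3387 counts (13.2, 12.97 and 14.9 FPKM), with 0.19 [0.14, 0.24] and -0.06 [-0.11, -0.01].

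Cyclin E and its kinase CDK2 act next and promote entry into S phase. CCNE2, cyclin E2, had 375, 549 and 281 counts in NC, GAS5 and siYAP (5.21, 7.91 and 4.26 FPKM). It was higher in GAS5 by 0.67 [0.54, 0.80] and lower in siYAP by -0.32 [-0.48, -0.17], at the edge of the threshold. Its exons overlap those of INTS8 on the opposite strand. CCNE1, cyclin E1, had 559, 613 and 454 counts (12.2, 13.9 and 9.94 FPKM), short of the threshold at -0.21 [-0.34, -0.08] in siYAP and 0.25 [0.14, 0.37] in GAS5. CDK2 had 3999, 3650.5 and 2922 counts (66.5, 66.0 and 50.7 FPKM), lower in siYAP by -0.36 [-0.41, -0.31] and at -0.01 [-0.06, 0.03] in GAS5. The FPKM of CCND1 was 10.8 times that of CCNE1 in NC, 9.71 times in GAS5 and 18.5 times in siYAP, so D1 and E1 drew apart in siYAP.

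E2F factors themselves had low levels and 2 of 3 were lower in siYAP, while 0 were called in GAS5. E2F1, an activator, had 953, 1014.5 and 666.5 counts in NC, GAS5 and siYAP (13.8, 15.6 and 9.94 FPKM), with log2 fold changes of -0.42 [-0.53, -0.32] and 0.21 [0.12, 0.30]. E2F8, an atypical factor that represses E2F targets, had 586.5, 541 and 360 counts (6.84, 6.36 and 4.35 FPKM), at -0.61 [-0.75, -0.48] in siYAP and 0.00 [-0.12, 0.12] in GAS5. E2F2, a further activator, had 1065, 960.5 and 802.5 counts (7.55, 7.25 and 5.96 FPKM), at -0.32 [-0.41, -0.22] and -0.03 [-0.12, 0.06]. In siYAP the activator E2F1 and the repressor E2F8 were thus both below NC.

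Some members lay close to the threshold. In siYAP, SLBP and CCNE2 lay just inside at -0.32, and E2F2 and MCM7 lay just outside at -0.32 and -0.30. In GAS5, GINS1 and CHAF1A lay just inside at 0.33, and MCM6 and MCM3 just outside at 0.31 and 0.30. Under at least 1 other processing setting the siYAP values of SLBP, CCNE2 and CCND3 were -0.30, -0.29 and 0.27, and the GAS5 values of GINS1 and CHAF1A were 0.30 and 0.28, all short of the threshold. MCM7 and E2F2 reached -0.34 and -0.60 in siYAP, past it, and CDC6 and POLA2 reached 0.38 and 0.58 in GAS5. MCM2 fell short in GAS5 at 0.25 with Ensembl transcripts only.

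GAS5 and siYAP were also set against each other directly, a comparison that uses no NC value. Of the 48 genes, 42 were higher in GAS5 than in siYAP and 1 was lower, against 18.4% of all genes higher and 18.5% lower. At least 1.5-fold higher were 33 genes, against 6.67% of all genes. Higher by at least 2-fold were 10 of the 48, against 152 of all 11907 genes. The median log2 fold change was 0.74 over the members and 0.00 over all genes. The 10 were GINS2 (1.66 [1.56, 1.76]), MCM4 (1.51 [1.47, 1.55]), MCM6 (1.43 [1.37, 1.5]), MCM5 (1.32 [1.28, 1.37]), MCM10 (1.22 [1.13, 1.31]), ORC1 (1.15 [1.06, 1.24]), MCM3 (1.14 [1.10, 1.18]), PCNA (1.13 [1.09, 1.18]), ORC6 (1.08 [0.90, 1.27]) and UHRF1 (1.07 [1.03, 1.12]). Of these 10 genes, 6 serve origin licensing, 2 helicase activation, 1 is the clamp and 1 carries DNA methylation. CCND1 was lower in GAS5 than in siYAP, at -0.47 [-0.49, -0.45]. The 5 genes that did not pass the threshold were PRIM1, CCND3, CDK4, CDK6 and E2F2.

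A further 53 genes of replication and of the E2F pathway were listed by function, and 52 had enough counts, CCND2 having 1, 0.5 and 0 counts. Of 35 other replication genes, 22 were lower and 0 were higher in siYAP, with a median of -0.37, against 15.2% of all genes lower. In GAS5, 4 of the 35 were higher and 0 lower, with a median of 0.15, and the share higher was near the 10.7% of all genes. The larger differences in siYAP fell in several steps of replication. HELLS, a chromatin remodeller, stood at -1.0 [-1.06, -0.95], WDHD1, which ties the helicase to polymerase alpha, at -0.92 and POLD3, a polymerase delta subunit, at -0.91. DTL, which directs the destruction of CDT1, stood at -0.83, ATAD2, an E2F coactivator, at -0.83, and CDC7, the kinase that fires origins, at -0.80, with its partner DBF4 at -0.68. RFC1, the large clamp loader subunit, and CLSPN, a checkpoint mediator, both stood at -0.79, and DSCC1 of the alternative loader at -0.70. TOPBP1, a scaffold for helicase activation, and PRIM2, the large primase subunit, stood at -0.66 and -0.61. In GAS5, CLSPN and DTL were higher, each at 0.51, and the remaining genes named here lay between -0.12 for HELLS and 0.19 for POLD3. RNASEH2C, a subunit of ribonuclease H2, was higher in GAS5 at 0.82 [0.71, 0.93] and stood at -0.15 in siYAP.

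Of the 17 other genes of the E2F pathway, 3 were higher and 4 lower in siYAP, and 3 were higher and 2 lower in GAS5. The shares over all genes were 14.1% higher and 15.2% lower in siYAP and 10.7% and 9.52% in GAS5, so these counts lay near the background. The medians were -0.13 and 0.03. CDKN1A, which encodes the p21 inhibitor of cyclin kinases, had 9553, 11391 and 16935 counts in NC, GAS5 and siYAP. It was higher in siYAP by 0.92 [0.89, 0.94] and in GAS5 by 0.37 [0.35, 0.40]. CDKN1C, which encodes the related p57, had 223, 206.5 and 351 counts, higher in siYAP by 0.74 [0.57, 0.92] and at 0.01 [-0.18, 0.20] in GAS5. CCNA2, the S phase cyclin A2, stood at -0.67 in siYAP and 0.20 in GAS5. FBXO5, an inhibitor of the anaphase-promoting complex, stood at -0.59 and -0.17, and the retinoblastoma relative RBL1 at -0.59 and 0.23. CDC25A, the phosphatase that activates CDK2, was higher in GAS5 at 0.69 [0.59, 0.80] and stood at 0.12 [0.01, 0.24] in siYAP.

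**Figure D4:**
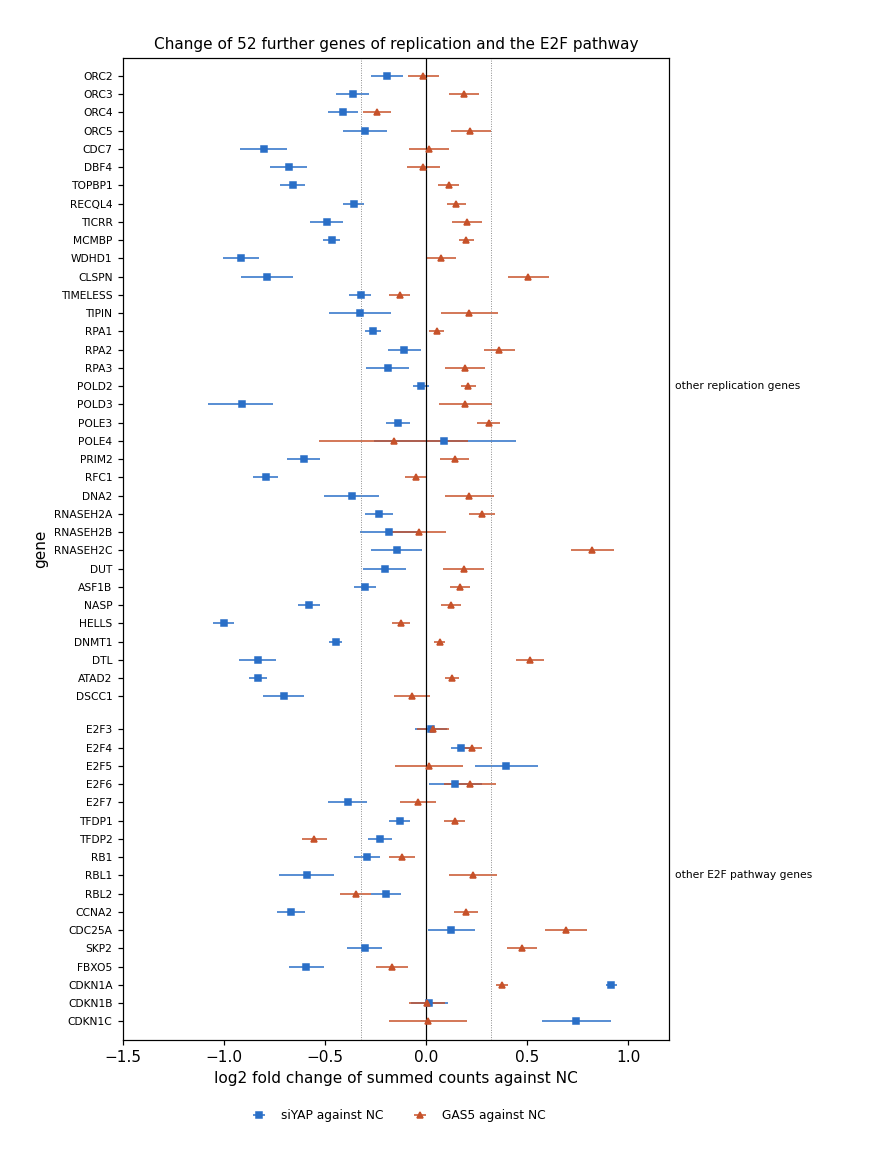
Log2 fold change against NC of 52 further replication and E2F pathway genes, with siYAP as squares and GAS5 as triangles. Bars are 95% Wilson intervals of counting error, dotted lines mark the threshold of 0.32 in either direction, and CDKN1A is the farthest to the right in siYAP at 0.92.

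E2F words were searched on both strands in the promoters of the members. The words were TTTCCCGC, TTTCGCGC, TTTGCCGC and TTTGGCGC, and words on opposite strands can share bases, as in MCM6. RefSeq promoters matched 41 members, leaving MCM4, MCM5, E2F8, CCND1, CDK2, CCNE2 and GINS4. Of the 41, 21 held an E2F word (51.2%), against 3.31% of all 35116 promoters and 6.86% of the 9226 measured genes with a promoter. The set was chosen to hold E2F target genes, so a high share was built into the list. A gene counted as holding a word when any of its promoters did, while the share of all promoters is over single promoters. CCAAT was found in 23 members (56.1%), 34.6% of all promoters and 43.4% of measured genes. GGAATG, the word of the TEAD factors through which YAP acts, was in 8 members (19.5%), 14.03% of all promoters and 14.6% of measured genes. E2F words were in 7 of 9 licensing genes, 4 of 6 polymerase genes, both E2F genes with a promoter and 0 of the 4 cyclins and kinases. They were in 3 of 5 helicase activation genes and 2 of 5 genes of the clamp and its loader. Nucleotide synthesis had 1 of 4, Okazaki fragment joining 1 of 2, and chromatin and histone supply 1 of 4. The median CpG count was 33 in the members and 29 in measured genes, each gene taken at its promoter with the most CpG. Over all single promoters the median was 14, which is not a like measure.

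Most words lay near the start. Of 29 matches, 18 lay within 100 bases before the start, and the median first base was 39 bases before it. MCM6 held 2 copies of TTTGGCGCGAAA, in which TTTGGCGC on the strand of the gene shares bases with TTTCGCGC on the other, GINS2 and PCNA held 1 word each on the opposite strand, and CDC6 held 1 just past the start. E2F1 held 2 words. Members with a word had a median of -0.54 on the log2 scale in siYAP, with 16 of 21 lower, and members without one had -0.44, with 15 of 20 lower and 1 higher. In GAS5 the medians were 0.27 and 0.25. The difference between these medians was not tested. A match describes letters in a window and not binding.

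**Figure D5:**
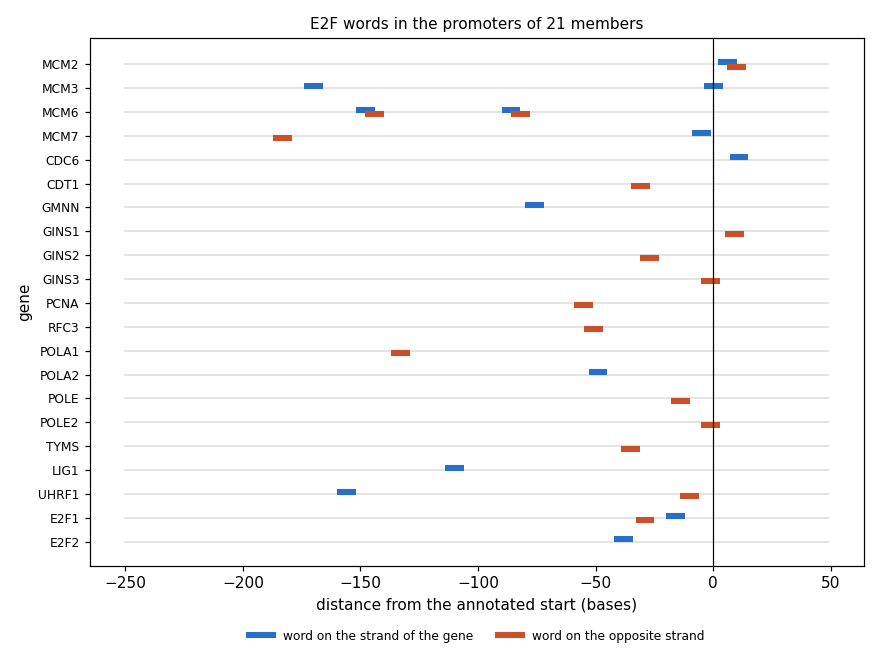
Place of E2F words in the promoters of 21 members, as distance in bases from the annotated start, with words on the strand of the gene in blue and on the opposite strand in orange. Most matches sit close to the start, with 18 of 29 within 100 bases before it.

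Shares of single transcripts differed in some members. The 48 genes had 80 transcripts of at least 50 mean counts and 10% of their gene, of which 12 were assembled from the reads, and 21 members had at least 90% of their NC counts on 1 transcript. In 8 members, 15 transcripts differed in share by at least 10 percentage points in GAS5 or siYAP. Such shifts were not counted over all genes, so whether the members differ from other genes in this is unknown. In CCND3 the transcript ENST00000372991 made up 45.2%, 65.3% and 37.9% of the gene's counts in NC, GAS5 and siYAP, while the assembled TCONS_00124126 made up 36.7%, 14.4% and 24.6%. In CCNE1, ENST00000444983 had 71.3%, 51.8% and 60.6%, and ENST00000262643 had 15.4%, 34.7% and 31.0%. POLE2 shifted in siYAP, where ENST00000554396 went from 39.2% in NC to 62.1% and ENST00000216367 went from 54.9% to 33.4%. Counts of similar transcripts are estimates, and the error of their shares is unknown. The most abundant transcript of each member was lower in siYAP in 36 of 48 cases and higher in 1, and in GAS5 it was higher in 16 and lower in 0. The same was not counted for the most abundant transcripts of all genes.

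Leaving out assembled transcripts moved the log2 fold change of a few members. In GAS5, CCND3 went to 0.90, POLA2 to 0.58 and MCM2 to 0.25. In siYAP, PRIM1 went to -0.70, E2F2 to -0.60, MCM2 to -0.77 and CCND3 to 0.57.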

How the data were processed

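The authors sequenced strand-specific RNA libraries of HCT116 cells, 2 each for NC, GAS5 and siYAP. The submitters' processing notes name TopHat2 2.1.1, and the counting tool, genome build and annotation are not given in the sources used here. The deposited expected counts are estimated counts per mRNA transcript, and each value is a mean of 2 libraries, taken by the authors. The deposited FPKM values are scaled by length and library size and averaged the same way. Columns of the authors' own comparisons, which hold log2 fold changes, p-values, FDR and a significance mark, were not used. Long non-coding transcripts, GAS5 included, are not analysed here.

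Each table lists 92866 transcripts, and 0.195 to 0.224% of counts were in transcripts with no symbol and stayed out. Counts were summed per symbol, in upper case as in the siYAP table. Sums with a mean of at least 50 were scaled by TMM in edgeR 4.0.16 (R 4.3.3) on each pair of group means, with a prior count of 2. Because the tables hold group means, the planned edgeR test could not be run, so calls rest on a difference of at least 25% above or 20% below. Wilson intervals at 95% used the counts behind each mean (statsmodels 0.14.6) and cover counting error only, not the spread between cultures. Scaling was tested on simulated data. The members and gene lists were chosen with earlier results of these data known. Full values are given for the 10 members with the largest absolute log2 fold change in each comparison and for every cyclin, kinase and E2F gene. Other pathway genes are named where they passed 1.5-fold in 1 treatment or the lower threshold the same way in both. In the lists of other pathway genes, 1 gene is not reported here and was left out of their counts. Promoters come from RefSeq on GRCh38.p14, and overlaps between genes from GENCODE 29 on GRCh38. Alternatives were DESeq2 1.42.0 size factors, total counts, 2 other filters, a prior count of 0.5, FPKM ratios, Ensembl transcripts only and other fold thresholds. TMM on transcripts, genes with a mean of at least 200 and FPKM shares were added after seeing the data.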

Additional observations from a re-analysis of the deposited data

How the results depend on the processing

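The counts of genes past the threshold depended on where it was set. They join both directions. Of all 11907 genes, 10.7% were higher and 9.52% lower at the threshold in GAS5 against NC. In siYAP against NC the shares were 14.1% and 15.2%, and in GAS5 against siYAP they were 18.4% and 18.5%. In GAS5 against NC, 18 members passed the threshold, 1 passed 1.5-fold and 0 passed 2-fold. Of the 52 other pathway genes, 9, 2 and 0 passed. Those 9 were 7 higher and 2 lower, near the shares of all genes. In siYAP against NC the members numbered 39, 20 and 3, and the other genes 29, 17 and 1. In GAS5 against siYAP, 43 members passed the threshold and 10 passed 2-fold, and the other genes numbered 38, 20 and 3. Under DESeq2 size factors, total count scaling, both other filters, a prior count of 0.5, FPKM ratios, Ensembl transcripts only and TMM on transcripts, the median of all genes moved by at most 0.04 log2 units and these counts stayed within 1.5 times. Of 1152 member values under those 8 settings, 1082 lay inside the interval of counting error and 70 outside it, 29 of them with FPKM ratios and 21 with Ensembl transcripts only. The sign varied for POLA1 and E2F8 in GAS5 against NC, both close to 0. Among the 10273 genes with a mean of at least 200, 9.41% were higher and 7.58% lower in GAS5 against NC, and 12.9% and 13.9% in siYAP against NC.

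No paired analysis was possible because each group has only its mean in the deposited tables. The edgeR test with a replicate block, the DESeq2 test and leaving out each library were not run either. Exons of 6 members overlap another gene on the same strand and of 20 on the other, and 8 members have a named pseudogene, so their counts are uncertain. The 6 are POLA2, PRIM1, POLD1, RRM2, FEN1 and CHAF1B. Overlaps named with single genes above are examples. Members given without one, such as MCM2, TYMS, CCND1, CDK2 and CDK4, also overlap a gene on the opposite strand.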
